A study of Mus musculus with 3 samples.

Results

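LIM-homeobox transcription factors outside the cortical selector genes were followed in dorsal cortex RNA of 4-day-old (P4) mouse pups. The 10 members were Lhx1, Lhx3, Lhx4, Lhx5, Lhx8, Lhx9, Isl1, Isl2, Lmx1a and Lmx1b. Every non-control probe whose transcript name or whose name in the authors' deposited table gave one of these symbols was taken, dim probes included. This gave 15 probes (24 spots) of 55681 non-control probes, and 10 of 35468 distinct genes or transcript names on the array. The study compared wild-type pups with Brpf1-deficient pups, untreated, on 3 two-colour arrays, each holding the RNA of 1 pair. The labels put wild type in Cy3 and Brpf1-deficient in Cy5 on every array, with no dye swap, so dye and genotype cannot be told apart. The labels do not give the Brpf1 allele, which cells carry the deficiency, the strain or the litters, so p-values measure only the spread between these 3 pairs.

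LIM-homeobox proteins carry a pair of LIM domains, which bind cofactors, and a homeodomain, which binds DNA. They work in complexes held together by Ldb proteins, and combinations of them give classes of neurons their identity, as Lhx3 with Isl1 does for spinal motor neurons. In the forebrain, Isl1 and Lhx8 are known from the ventral telencephalon, where Isl1 acts in striatal projection neurons and Isl1 and Lhx8 in cholinergic neurons, whereas Lhx2 is a selector of the cortex itself. Lhx3 and Lhx4 act in the pituitary and in motor neurons, Lhx1, Lhx5 and Lhx9 in relay neurons and interneurons of the spinal cord and brain, Isl2 in motor and sensory neurons, and Lmx1a and Lmx1b in the roof plate and in dopamine and serotonin neurons.

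Of the 10 members, 8 had a probe that passed the filter on dim spots (2 or more arrays on which Cy3, Cy5 or both were well above background), and 1 of these 8, Lhx4, passed the test. Lhx4 was brighter in Cy3 on all 3 arrays, by 2.70-fold. No member passed the test in the Cy5 direction, although Lhx8 and Isl1 had mean ratios of 0.75 and 0.60 on the log2 scale. Those 2 genes differed between arrays more than nearly any other gene measured. Lhx3 and Isl2 were not well above background in either channel on any array.

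Before any direction is read, the check of the labels has to be given. Brpf1 itself, the chromatin reader whose deficiency defines the Cy5 samples, gave Cy5 over Cy3 ratios of 0.63, 0.73 and 0.96 (log2) on arrays 1, 2 and 3. It was therefore brighter in the channel labelled Brpf1-deficient (0.77 ± 0.17, SD, n = 3, limma adjusted p = 0.00446), which goes against the labels, and whether the probe lies in a deleted stretch is not stated. The authors' deposited table lists Brpf1 at -0.80, and in that table each of the 11 member probes it lists, from 9 members, has the sign opposite to the ratio found here. Ratios below are given as Cy5 over Cy3, and channels are named by dye, with the genotype only as labelled.

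Short stretches of promoter show the genes on which the results turn. RefSeq windows on GRCm38.p6, from 250 bases before to 50 after a gene's start, existed for 9 of the 10 members (10 windows), and Lhx5 was the member not matched. The windows are printed 5′ to 3′ on the gene's strand, with every CG dinucleotide in capitals, for the member that passed the test (Lhx4) and for the pair that moved together across arrays (Isl1 and Lhx8). They lie at chr1:155741978-155742277 for Lhx4, chr13:116309639-116309938 for Isl1 and chr3:154330511-154330810 for Lhx8, all on the minus strand.
Lhx4: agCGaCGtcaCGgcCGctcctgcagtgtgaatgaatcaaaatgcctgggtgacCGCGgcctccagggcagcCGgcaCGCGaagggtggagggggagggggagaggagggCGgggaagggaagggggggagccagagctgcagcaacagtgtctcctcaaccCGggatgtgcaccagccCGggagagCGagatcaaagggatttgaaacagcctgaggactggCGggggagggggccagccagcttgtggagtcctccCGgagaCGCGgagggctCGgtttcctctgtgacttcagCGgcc
Isl1: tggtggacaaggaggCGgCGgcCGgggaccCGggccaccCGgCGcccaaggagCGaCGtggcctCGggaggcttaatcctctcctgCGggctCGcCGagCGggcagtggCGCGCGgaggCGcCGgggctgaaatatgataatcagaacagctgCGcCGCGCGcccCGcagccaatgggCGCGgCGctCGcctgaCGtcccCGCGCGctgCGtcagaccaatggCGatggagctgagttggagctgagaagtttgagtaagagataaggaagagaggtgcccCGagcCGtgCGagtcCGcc
Lhx8: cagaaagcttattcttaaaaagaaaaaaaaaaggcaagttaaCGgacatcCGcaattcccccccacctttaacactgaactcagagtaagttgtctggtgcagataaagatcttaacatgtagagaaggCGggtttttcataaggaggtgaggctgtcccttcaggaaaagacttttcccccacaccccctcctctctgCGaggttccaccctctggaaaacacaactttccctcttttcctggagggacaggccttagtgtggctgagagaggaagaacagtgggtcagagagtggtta

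The windows of these genes were unlike one another. That of Isl1 held 37 CG dinucleotides, more than 94.4% of the 32851 RefSeq windows of the same length, and that of Lhx4 held 19. The window of Lhx8 held 4, with a GC content of 47.0% against 69.0% for Isl1. Over all windows the median was 7, with quartiles of 3 and 20, and over the 10 windows of the members it was 21. The homeodomain motif TAATTA, which reads the same on both strands, was in none of the 10 windows and in 5.29% of all windows. High and low CG content were therefore both present in the pair of genes whose array profiles ran together.

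**Figure D1:**
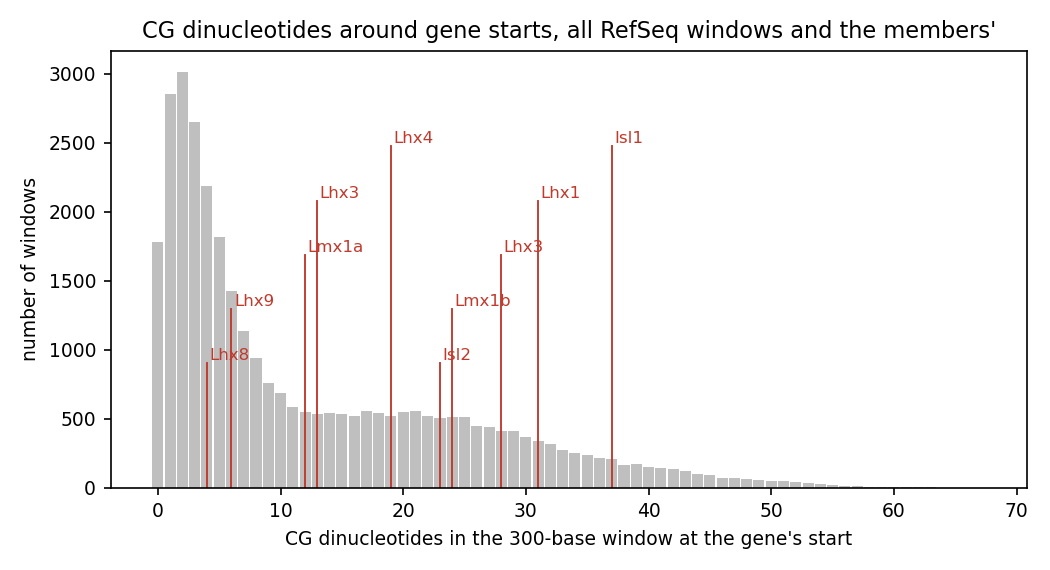
CG dinucleotides in the 300 bases around gene starts. Grey bars count all 32851 RefSeq windows by their number of CG dinucleotides, and red lines mark the 10 windows of the members, from 4 in Lhx8 to 37 in Isl1.

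Lhx4, a factor of the developing pituitary and of spinal motor neurons that lies on chromosome 1, was measured by 2 probes. The probe used for the gene, the brighter of the 2 and named by an Ensembl transcript, had Cy3 signals of 523, 385 and 362 scanner units on arrays 1, 2 and 3, over local backgrounds of 54, 52 and 52.5. Its Cy5 signals were 288, 235 and 249, over backgrounds of 143, 128 and 108. Both channels were well above background on all 3 arrays, and the Cy3 spot was the higher on each, although the Cy5 background was more than that of Cy3.

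After normalization, the log2 ratios of this probe were -1.49, -1.62 and -1.19. The mean was -1.43 ± 0.22 (SD, n = 3), a 2.70-fold difference, with a 95% confidence interval of -1.65 to -1.21 and a limma adjusted p of 0.000448. Over all 23232 genes tested, 17.1% passed the threshold of 0.05, 9.17% of genes brighter in Cy3 and 7.97% brighter in Cy5. Against that background, 1 of 8 members called is not a share that stands out. Among all genes the ratio of Lhx4 was the 28th lowest.

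The other Lhx4 probe, named by a RefSeq transcript, gave Cy3 signals of 386.5, 324 and 313 over backgrounds of 78, 46 and 49. In Cy5 its signals of 164, 144 and 141 lay near or below their backgrounds of 180, 130 and 113, and on no array was that channel well above background. Its measured log2 ratios were -2.03, -2.18 and -1.79 (SD 0.19, n = 3). Since Cy5 was not well above background, the difference is stated as a nominal bound: Lhx4 was at least 3.92-fold brighter in Cy3 by this probe. The bound sets the Cy3 mean against a Cy5 floor on each array (the lowest signal counted as well above background, or the probe's own value where that was greater), after each channel was scaled between arrays, and it is open to dye bias. Some probes not well above background in Cy5, such as that of Lhx3, had a mean above this floor, so the true difference can be smaller than the bound. In the fit over all 55681 probes without a filter its limma adjusted p was 2.38e-06, and that of the other probe was 3.37e-05. In that fit 11% of probes passed, 6.1% in the Cy3 direction and 4.94% in the Cy5 direction, and of the 15 member probes 3 passed, all in Cy3 (both of Lhx4 and 1 of Isl2, described below).

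Both probes of Lhx4 thus differed in the same direction on every array, and their ranges did not overlap 0. The call held under each of the 12 alternative settings and leave-outs, with means from -2.13 to -1.34 and limma adjusted p from 9.6e-10 to 0.00452. The authors' deposited table gives the same 2 probes log2 values of 2.00 and 4.59, of opposite sign and with adjusted p of 0.220 and 0.240. The genes on either side of Lhx4 did not follow it: Acbd6 had log2 ratios of -0.13, 0.09 and 0.10, and Qsox1 0.24, 0.12 and 0.03. Neither passed the test (limma adjusted p = 0.850 and 0.245).

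The 5 genes whose 3 ratios lay nearest to those of Lhx4, by Euclidean distance over the arrays, were Crnde (0.133), Spag6 (0.136), Twist1 (0.182), Dmrt2 (0.251) and Hoxa7 (0.286). Twist1 is a bHLH factor of mesoderm and neural crest, Dmrt2 a factor of somites, Hoxa7 a trunk patterning gene and Crnde a long noncoding RNA. Their mean log2 ratios were between -1.51 and -1.36. For Spag6 and Hoxa7, as for the dimmer Lhx4 probe, Cy5 was well above background on no array. The 5 were picked for this likeness, so their agreement with Lhx4 is a description.

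**Figure D2:**
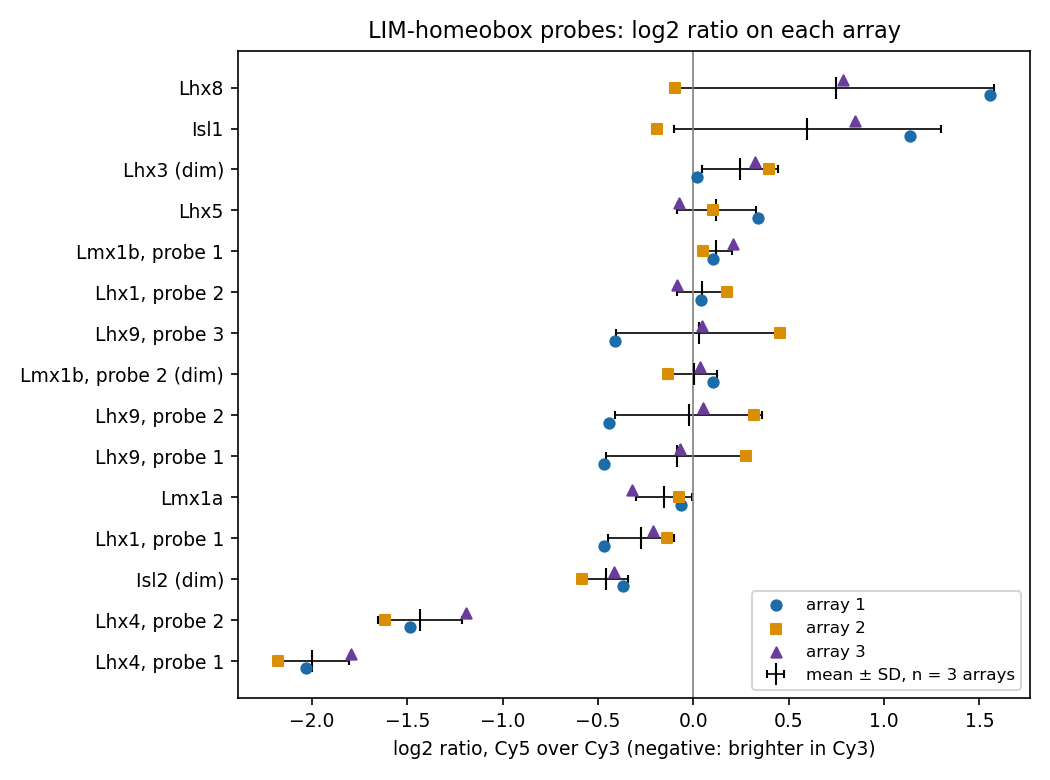
Log2 ratio of Cy5 over Cy3 for each of the 15 probes on each array, with the mean and SD over 3 arrays. Both Lhx4 probes lie between -2.18 and -1.19 on every array, Isl1 and Lhx8 spread from below 0 to above 1, and the 3 probes marked dim did not pass the filter.

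Isl1 lies on chromosome 13 and has 1 probe, printed 10 times on each array, which gives the spread among spots within an array. The spots of an array share the same labelled RNA, so they cannot separate a difference between pairs from error of a whole array. Its Cy3 signal (median of the 10 spots) was 351.25, 589.5 and 425 on arrays 1, 2 and 3, over backgrounds of 63.5, 44 and 51.5. Its Cy5 signal was 1236, 938.25 and 1267.25, over backgrounds of 152.75, 116.5 and 114. Array 2 was thus the highest in Cy3 and the lowest in Cy5.

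The log2 ratios of Isl1 were 1.14, -0.19 and 0.85, a mean of 0.60 ± 0.70 (SD, n = 3; 95% confidence interval 0.07 to 1.12), which did not pass the test (limma adjusted p = 0.103). The 10 spots ran from 1.04 to 1.28 on array 1, from -0.33 to -0.07 on array 2 and from 0.77 to 0.97 on array 3. No spot of array 2 therefore reached the lowest spot of the other arrays. The SD among spots was 0.07 on arrays 1 and 2 and 0.06 on array 3, against 0.70 among the 3 array means. The spread between arrays was thus larger than the spread among spots, and larger than the SD of 99.8% of all genes. Without array 2 the mean was 0.99 and passed the test (limma adjusted p = 3.95e-07, 2 arrays), so this 1 array decided the call. A p-value from 2 arrays leans on the variance of other genes and is not comparable with those from 3 arrays. Here the array left out was also the one that differed.

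Lhx8, on chromosome 3, is needed for cholinergic neurons of the basal forebrain and gave the same profile from 1 spot per array. Its Cy3 signals were 321, 448 and 421, over backgrounds of 51, 29 and 36, and its Cy5 signals were 1589, 754 and 1236.5, over backgrounds of 134, 90 and 94. The log2 ratios were 1.56, -0.10 and 0.79 (0.75 ± 0.83, SD, n = 3; 95% confidence interval 0.13 to 1.36; limma adjusted p = 0.0867). As with Isl1, array 1 was the highest, array 3 intermediate and array 2 below 0. Its SD was larger than that of 99.9% of genes. Without array 2 its mean was 1.17 and passed (limma adjusted p = 1.61e-07, on 2 arrays, with the same limit as for Isl1), so that array decided this call as well. The genes beside Lhx8, Slc44a5 and Tyw3, went the other way, at -0.38 each (limma adjusted p = 0.0353 and 0.0246), whereas those beside Isl1, Pelo and Parp8, were at 0.13 and -0.12 and did not pass.

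Markers of the striatum and the basal forebrain moved with Isl1 and Lhx8 across the arrays. All 12 striatal marker genes other than Isl1 had their highest ratio on array 1 and their lowest on array 2, an order found in 19.6% of all genes tested. Their median ratio was 1.06, 0.22 and 0.68 on arrays 1, 2 and 3. Of the 12, 8 passed the test, all brighter in Cy5, where 7.97% of all genes passed in that direction. The median over the list was 0.66 against -0.01 over all genes. Penk, an opioid peptide precursor of indirect-pathway neurons, had ratios of 1.55, 0.46 and 1.22. Pdyn, the dynorphin precursor of direct-pathway neurons, had 1.63, 0.50 and 1.30. Both passed (limma adjusted p = 0.0144 and 0.0135), as did the adenosine receptor gene Adora2a (0.71 ± 0.41, SD, n = 3, 0.0221) and the early factor Ebf1 (0.60 ± 0.24, SD, n = 3, 0.0133). Every one of the 12 was well above background in both channels on all arrays. Their summed signal above background was 33214, 52302.5 and 37659.5 in Cy3, highest on array 2 as for Isl1, and 135996, 120276 and 134262 in Cy5, lowest on array 2. The count called was 6 without array 1, 11 without array 2 and 7 without array 3, and 0 with the scanner's processed signals, where 4.76% of all genes passed. The part of striatal tissue in the Isl1 and Lhx8 profiles was not tested, and in bulk RNA more cells of a type and more RNA per cell cannot be told apart.

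The list for cholinergic neurons of the basal forebrain, without Isl1 and Lhx8, showed the array profile less uniformly. Array 2 was the lowest for 8 of its 9 genes, against 30.4% of all genes, and 6 of 9 had the full order of Isl1 and Lhx8. The median ratio was 0.50, 0.07 and 0.35 on arrays 1, 2 and 3, with a summed signal above background of 4558.5 to 5530 in Cy3 and 6726.25 to 7850.75 in Cy5. Of the 9 genes, 2 were brighter in Cy5, 1 was brighter in Cy3 and 6 did not pass. Slc18a3, the vesicular acetylcholine transporter, was at 0.50 ± 0.36 (SD, n = 3, limma adjusted p = 0.0411) and Slc5a7, the choline transporter, at 0.46 ± 0.34 (SD, n = 3, 0.0448). Both calls were lost without array 1 (0.0768 and 0.131) and without array 3 (0.0690 and 0.136), and a second Slc5a7 probe was at 0.17. That of Slc5a7 was also lost with offset 10 (limma adjusted p = 0.0555) and with the mean over its probes (0.0769). Chat, which makes acetylcholine and whose first intron holds Slc18a3, was brighter in Cy3 (-0.67 ± 0.36, SD, n = 3, limma adjusted p = 0.0195), on all 3 arrays. With the scanner's processed signals the calls of Chat (-0.70, limma adjusted p = 0.0638), Slc18a3 (0.0988) and Slc5a7 (0.122) were all lost. The acetylcholine genes thus did not share a direction.

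**Figure D3:**
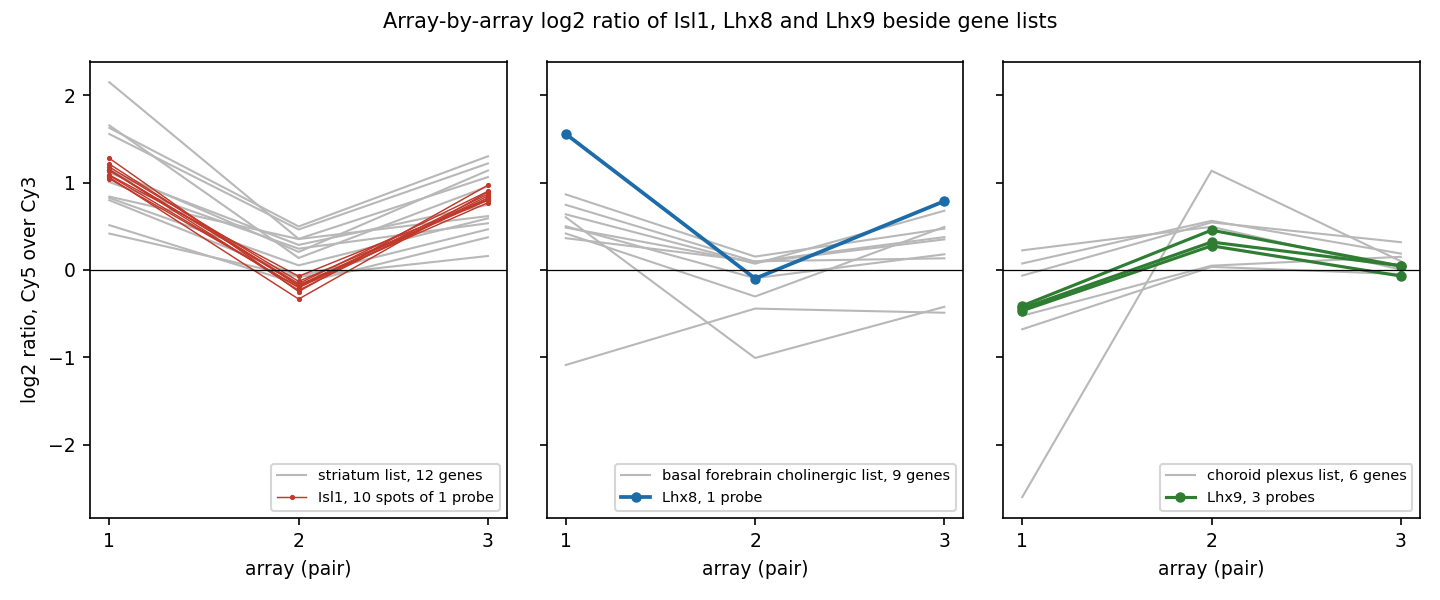
Log2 ratio of Cy5 over Cy3 on each array for Isl1 (10 spots), Lhx8 (1 probe) and Lhx9 (3 probes), in colour, over gene lists in grey (striatum, basal forebrain cholinergic and choroid plexus). Lines join the values of a spot, probe or gene, and the arrays have no order. Isl1 and Lhx8 dip on array 2, where Lhx9 peaks. Lhx9 is not in the choroid plexus list, which was set beside it for its array profile.

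Lhx9, a factor of thalamic and spinal relay neurons on chromosome 1, did not pass the test, yet its 3 probes repeated one another array by array. The probe used for the gene had log2 ratios of -0.47, 0.28 and -0.07. The others had -0.44, 0.32 and 0.05, and -0.41, 0.45 and 0.04. On each array the probes lay within a narrow band: -0.44 ± 0.03 on array 1, 0.35 ± 0.09 on array 2 and 0.01 ± 0.07 on array 3 (SD over 3 probes of 1 sample, which are not replicates). The mean for the gene was -0.09 ± 0.37 (SD, n = 3; 95% confidence interval -0.40 to 0.22; limma adjusted p = 0.662), with an SD larger than that of 97.4% of genes. The ratio of Lhx9 was thus lowest on array 1 and highest on array 2, unlike Isl1 and Lhx8.

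Raw signals of Lhx9 were well above background in both channels on all arrays for all 3 probes. The probe used for the gene had Cy3 signals of 905, 495 and 574 over backgrounds of 75, 39.5 and 46, and Cy5 signals of 1058.5, 1072 and 903 over backgrounds of 187.5, 97 and 101. For this probe array 1 stood out in Cy3, while Cy5 changed little. The other probes had Cy5 signals of 216, 307 and 266, and of 815, 960 and 846, lowest on array 1 and highest on array 2. Array 1 also had the highest Cy3 array median (187.5, against 151 and 165).

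The choroid plexus list was drawn up with Lmx1a, not Lhx9, among the members. It was set beside Lhx9 because its array medians had the same order, at -0.29, 0.52 and 0.12. That match is therefore a description, and Lmx1a itself had another order (-0.07, -0.07 and -0.32). Array 1 was the lowest for 5 of the 6 genes of the list, which 41.6% of all genes share. Array 2 was the highest for 5 of 6, which 29.4% share. Ttr, the transthyretin gene that choroid plexus makes in quantity, ran from -2.60 on array 1 to 1.13 on array 2 and 0.10 on array 3. The summed signal of the list above background was 15329, 20516 and 45487 in Cy3 and 5867.5, 92709.5 and 109475 in Cy5. On array 1 the Cy5 sum was the lower of the channels, and on arrays 2 and 3 the higher. None of the 6 genes passed the test. The thalamus list, which was drawn up with Lhx9 among the members, had a median of -0.02 over its 10 genes. Its array medians were -0.21, -0.07 and 0.02, not in the order of Lhx9. Of these, 3 were brighter in Cy3, led by the vesicular glutamate transporter Slc17a6 (-0.83 ± 0.12, SD, n = 3, limma adjusted p = 0.00191) and the axon protein gene Ntng1 (-0.51 ± 0.07, SD, n = 3, 0.0085), and 2 in Cy5, led by Prkcd (0.53 ± 0.08, SD, n = 3, 0.00763). The part of either tissue in the Lhx9 profile was not tested.

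Lhx1 and Lhx5 are related factors of Cajal-Retzius cells, spinal interneurons and cerebellar neurons, on chromosomes 11 and 5. Lhx5 had Cy3 signals of 286, 233.5 and 298.5 over backgrounds of 73, 42 and 43.5, and Cy5 signals of 599, 447.5 and 476 over 176, 108.5 and 111. Its log2 ratios of 0.34, 0.10 and -0.07 lay on both sides of 0 (0.12 ± 0.21, SD, n = 3; 95% confidence interval -0.09 to 0.34; limma adjusted p = 0.368). The Lhx1 probe used for the gene was at 0.04, 0.18 and -0.09 (0.04 ± 0.13, SD, n = 3; interval -0.14 to 0.23; limma adjusted p = 0.706). Neither gene passed the test by these probes.

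The second Lhx1 probe, named by an Ensembl transcript, disagreed with the first. It was below 0 on every array, at -0.47, -0.14 and -0.21 (-0.27 ± 0.17, SD, n = 3), and did not pass in the fit over all probes (limma adjusted p = 0.0658). Without array 2 its mean was -0.34 and it passed (0.0354). Its Cy5 signals of 248, 254 and 288 stood over backgrounds of 204, 104 and 114, so array 1, where the ratio was lowest, was also where that background was highest. The Cajal-Retzius list without Lhx1 and Lhx5 had a median of -0.03 over 8 genes, of which 2 were brighter in Cy3, 3 brighter in Cy5 and 3 did not pass. Calb2, the calcium-binding protein calretinin, was at -0.48 ± 0.29 (SD, n = 3, limma adjusted p = 0.0308), a call lost with median centring (0.0755) and processed signals (0.0676). Cacna2d2, a calcium channel subunit gene, was brighter in Cy5 at 0.40 ± 0.21 (SD, n = 3, limma adjusted p = 0.0315), a call lost without array 3 (0.0569) and with processed signals (0.0739), and a second probe was at 0.18.

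Lmx1a and Lmx1b, on chromosomes 1 and 2, act in the roof plate and cortical hem, in dopamine neurons and, for Lmx1b, in serotonin neurons. Lmx1a was well above background on 3 arrays in Cy3 and 2 in Cy5, with Cy3 signals of 137, 124 and 172 over 57, 43 and 64. Its log2 ratios were -0.07, -0.07 and -0.32 (-0.15 ± 0.15, SD, n = 3; interval -0.34 to 0.03; limma adjusted p = 0.204). Lmx1b was at 0.10, 0.05 and 0.21 (0.12 ± 0.08, SD, n = 3; interval -0.05 to 0.29; limma adjusted p = 0.253), with the smallest SD among the 8 members tested. A second Lmx1b probe, not well above background in either channel on any array, was at 0.10, -0.13 and 0.04. Each gene kept its sign over the 3 arrays in the probe used, and neither passed.

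The lists around the Lmx1 genes moved in both directions. Over all genes tested, 9.17% were called brighter in Cy3 and 7.97% brighter in Cy5. Of 12 midbrain dopamine and serotonin genes tested, without the Lmx1 pair, 2 were brighter in Cy3, 4 in Cy5 and 6 did not pass, with a median of 0.19. Foxa1, a floor plate factor, had ratios of -2.15, -1.89 and -2.25 and no array with Cy5 well above background, which makes it at least 3.81-fold brighter in Cy3 (limma adjusted p = 6.69e-05). En2, an engrailed gene of the midbrain and hindbrain, was at least 1.93-fold brighter in Cy3 (0.00124). Both are nominal bounds, with the same kind of floor as for Lhx4. Slc6a4, the serotonin transporter, was at 0.73 ± 0.15 (SD, n = 3, limma adjusted p = 0.00455), and Th, the first enzyme of dopamine synthesis, at 0.50 ± 0.19 (SD, n = 3, 0.0158), both brighter in Cy5. Of 10 roof plate and hem genes, 2 were brighter in Cy3, 1 in Cy5 and 7 did not pass, and the called ones were all R-spondins, which strengthen Wnt signals: Rspo3 (-0.87), Rspo2 (-0.57) and Rspo1 (0.68). The Rspo2 call was lost with processed signals (limma adjusted p = 0.0510). Rxrg, a retinoid receptor gene next to Lmx1a, was singled out after its values were seen: its ratios of 2.58, 0.30 and 1.02 had the order of Isl1 and Lhx8 (1.30 ± 1.16, SD, n = 3, limma adjusted p = 0.0495). It was the 1 of the 18 neighbours of the 9 other members called brighter in Cy5, and 4 were called brighter in Cy3, beside the shares of all genes given above.

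Lhx3, on chromosome 2, and Isl2, on chromosome 9, partner factors of motor neurons, were not well above background in either channel on any array. For Lhx3 the Cy3 signals were 83, 61 and 74 over backgrounds of 46, 39 and 42, and the Cy5 signals were 130, 132 and 146 over 114, 104 and 96. Its log2 ratios of 0.02, 0.40 and 0.32 (0.25 ± 0.20, SD, n = 3) did not pass in the fit over all probes (limma adjusted p = 0.102), except without array 1 (0.36, 0.0239). For Isl2 the Cy3 signals were 103, 83 and 83 over 48, 42 and 48, and the Cy5 signals of 122, 94.5 and 97 lay below their backgrounds of 127, 118.5 and 117.5. Its log2 ratios were -0.37, -0.59 and -0.42 (-0.46 ± 0.11, SD, n = 3), which passed in the unfiltered fit (limma adjusted p = 0.00798). Since neither channel was well above background for either gene, these ratios are limited by noise and no fold is drawn from them. The authors' deposited table lists Isl2 at 1.63.

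**Figure D4:**
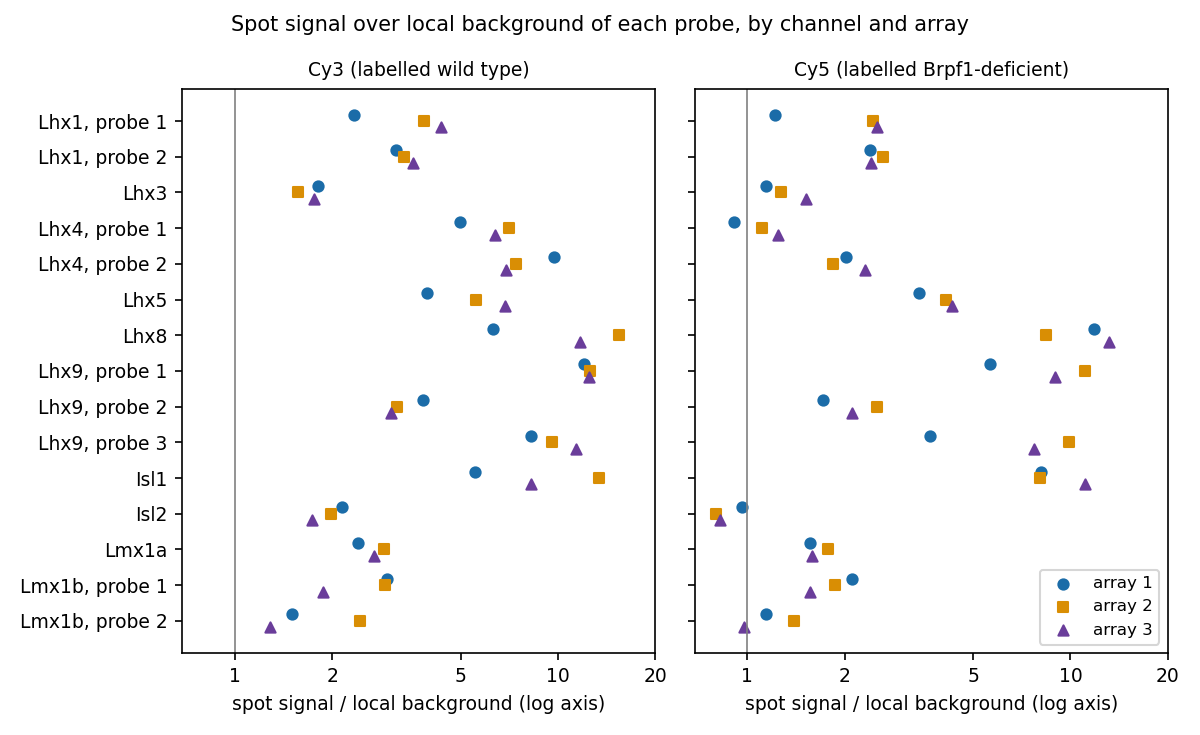
Spot signal divided by local background for each probe on each array, on a log axis, Cy3 (labelled wild type) on the left and Cy5 (labelled Brpf1-deficient) on the right. The dimmer Lhx4 probe lies near 1 in Cy5 and clearly above it in Cy3, and Isl2 lies at or below 1 in Cy5; points are read within a probe, since probes differ in brightness for the same RNA amount.

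Of the other genes of the cells in which Lhx3, Lhx4 and Isl2 act, motor neuron genes were in part measurable and pituitary genes mostly not. Of 13 motor neuron genes on the array beside the members, 5 were well above background in neither channel and 7 were tested, with 2 brighter in each channel and a median of 0.15. Those called were Chat, Slc18a3 and Slc5a7, given above, and Prph, the peripherin gene, at -0.29 ± 0.05 (SD, n = 3, limma adjusted p = 0.0318). The Prph call was lost without array 2 (0.0831) and without array 3 (0.102). Median centring (limma adjusted p = 0.0759) and processed signals (0.0569) lost it as well. Of 12 pituitary genes beside the members, 8 were well above background in neither channel on any array and 3 were tested. Pomc, the hormone precursor, was at 0.30 (limma adjusted p = 0.0302). Its call was lost without array 2 (0.0538), without array 3 (0.145) and with processed signals (0.0611). The Cy3 signal of Lhx4 was therefore measured in RNA where most pituitary markers were not well above background.

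Of 18 hindbrain and spinal interneuron genes beside the members, 12 were well above background in neither channel and 5 were tested. The 1 called was Pou4f1, a POU factor of sensory neurons, at -1.26 ± 0.28 (SD, n = 3, limma adjusted p = 0.00164). Its Cy5 signal was well above background on 1 of the 3 arrays, so the size of this ratio is uncertain, and with the scanner's processed signals it was -2.61 and did not pass (0.0609). Of 8 retina genes 7 were well above background in neither channel, and the 1 tested did not pass. Of 6 hypothalamic genes tested, Trh, the thyrotropin-releasing hormone gene, was brighter in Cy5 (1.62 ± 0.37, SD, n = 3, limma adjusted p = 0.00114) and the others did not pass. Meningeal genes gave 1 call in Cy3 of 9 tested, Foxd1 at -0.54 (limma adjusted p = 0.0147). Erythroid genes gave 2 calls in Cy5 of 6, the alpha-globins Hba-a1 and Hba-a2, at 1.10 each (0.0130 and 0.0126). Both globin calls were lost with processed signals (limma adjusted p = 0.0810 and 0.0805). Dorsal cortex markers, 13 of 13 well above background in Cy3 on every array and 12 of 13 in Cy5, gave 3 calls in Cy3 and 5 in Cy5, with a median of 0.09.

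The LIM-homeobox genes of the cortex and its interneurons were measured beside the members. Lhx2, the cortical selector, was brighter in Cy5 at 0.48, 0.52 and 0.33 (0.44 ± 0.10, SD, n = 3, limma adjusted p = 0.0131). Lhx6, a factor of interneurons from the medial ganglionic eminence, was brighter in Cy3 at -0.61, -0.19 and -0.36 (-0.39 ± 0.21, SD, n = 3, limma adjusted p = 0.0336). The Lhx6 call was lost without array 1 (0.0573) and without array 3 (0.0772). Median centring (-0.15, limma adjusted p = 0.386), processed signals (-0.34, 0.0973) and the mean over its probes (-0.21, 0.114) lost it as well. The other Lhx6 probes were at -0.22 and -0.03. Lhx6 and Lhx8, which both come from the medial ganglionic eminence, thus had mean ratios of opposite sign.

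Cofactors that LIM-homeobox proteins need were all well above background in both channels on every array. Of 10, 2 were brighter in Cy3, 2 in Cy5 and 6 did not pass, where 17.1% of all genes passed, with a median of 0.00. Ldb1, the main scaffold, was at 0.07, 0.12 and -0.13 (0.02 ± 0.13, SD, n = 3, limma adjusted p = 0.856). Its relative Ldb2 was brighter in Cy3 (-0.33 ± 0.10, SD, n = 3, 0.0298). The Ldb2 call was lost without array 2 (0.0590) or array 3 (0.0657), with median centring (-0.12, 0.388) and with processed signals (-0.34, limma adjusted p = 0.0645).

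The LIM-only proteins, which bind Ldb proteins without a homeodomain and so compete with LIM-homeobox factors, held 3 of the 4 calls. Lmo4, known for its graded expression in the cortex, had ratios of 0.71, 0.67 and 0.90 (0.76 ± 0.12, SD, n = 3, limma adjusted p = 0.00305), and a second probe was at 0.89. Lmo1 was brighter in Cy3, at -0.74, -0.52 and -0.41 (-0.55 ± 0.17, SD, n = 3, 0.0111). Lmo3 was brighter in Cy5 at 0.30 ± 0.11 (SD, n = 3, 0.0364), with a second probe at 0.25, but the call was lost without any 1 of the arrays (0.0639 to 0.107). Processed signals (limma adjusted p = 0.0728) and the mean over its probes (0.0573) lost it as well. Lmo2 did not pass at 0.23 (0.0719), except with median centring (0.0366). The single-stranded DNA binding proteins that stabilise Ldb, Ssbp2, Ssbp3 and Ssbp4, were at -0.08, -0.24 and 0.02 (limma adjusted p = 0.472, 0.0553 and 0.871; Ssbp3 passed without array 1, 0.0432, and with an intensity trend, 0.0370). Rlim, the ubiquitin ligase that removes Ldb, was at -0.02 (0.865).

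Over the 8 members tested, 5 mean ratios were above 0 and 3 below, with a median of 0.08 against -0.01 over all genes. The sign was the same on all 3 arrays for 3 of the 8, Lhx4, Lmx1a and Lmx1b. The median SD over arrays was 0.21 against 0.12 for all genes, and Lhx8, Isl1 and Lhx9 were at its upper end. Array medians of signal were 151 to 187.5 over backgrounds of 42 to 60 in Cy3, and 271 to 307 over 111.5 to 148 in Cy5, and 57.9% to 61.0% of spots were well above background. With median centring in place of loess, 83.4% of calls over all genes were brighter in Cy5, against 46.5% with loess, and the members' calls in the gene-level fit were the same under both.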

How the data were processed

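Dorsal cortex RNA (350 ng) was amplified in a single round, labelled with Cy3 or Cy5 and mixed on 3 arrays, per the labels. Per the file headers, Agilent Feature Extraction 10.7.3.1 gave the deposited spot intensity, local background and well-above-background calls. The authors' deposited table holds log2 fold changes, p-values and adjusted p-values over 40000 rows of spots (largest p-value 0.458), and test scores (moderated t and log-odds) made by the authors, which were not used. The submitters' processing notes name limma, with no version.

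Here limma 3.58.1 in R 4.3.3 was used on the deposited intensity: normexp on spot medians (offset 50), loess within arrays with control spots at weight 0, outlier spots (4 to 6 per array) left out, spots of a probe averaged. Probes were kept where Cy3, Cy5 or both were well above background on 2 or more arrays (32983 of 55681), with the brightest probe per gene (23232 genes). An intercept-only fit on log2 ratios with eBayes was two-sided, and p-values were adjusted by Benjamini-Hochberg across every gene tested (threshold 0.05). All 55681 probes were also fitted unfiltered. The 3 arrays limit the precision. Symbols came from RefSeq for 13 member probes and from the authors' deposited table for 2. Array annotation and promoter windows use different builds and no positions were carried between them.

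Members and the 17 gene lists were chosen with earlier results of these data known, and no test was made over a list. Genes named are the members, Brpf1, all LIM cofactors, Lhx2 and Lhx6, up to 4 genes of smallest adjusted p per list, and neighbours and nearest profiles of the called member. Rxrg, Ttr and the neighbours of Isl1 and Lhx8 lie outside this rule and were chosen after their values were seen. Some genes that the rule takes are not reported here. The scripts were tested on simulated data. Alternatives were no or a stricter filter, offset 10, no background subtraction, the scanner's processed signals, median centring, Aquantile, a mean over probes, an intensity trend, and leaving out each array.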

Additional observations from a re-analysis of the deposited data

How the results depend on the processing

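Lhx4 kept its direction and its call under all 12 alternatives, and 94 of the 96 alternative values of the 8 members tested stayed on the same side of the threshold; Lhx1 and Lhx9, never called, changed sign under some. The others were Lhx8 and Isl1 without array 2. Leaving out each array in turn, a replicate, gave 0.34 to 1.17 for Lhx8 and 0.33 to 0.99 for Isl1, and 0 to 2 members called in Cy5. Members called in Cy3 rose from 1 to 2 with no filter, by Isl2. For single probes, median centring brought Lhx8 (0.80, limma adjusted p = 0.0413) and Isl1 (0.65, 0.0493) past the threshold, and the scanner's processed signals took Isl2 out (-1.14, 0.0825). Leave-outs gave -0.39 to -0.50 for Isl2, 0.17 to 0.36 for Lhx3 and -0.18 to -0.34 for the second Lhx1 probe. Of 121 list genes, 19 were called in Cy3 and 31 in Cy5, where 9.17% and 7.97% of all genes tested were called. Processed signals left 8 and 8, median centring left 11 in Cy3, and leave-outs gave 14 to 18 in Cy3 and 20 to 36 in Cy5. Ssbp2 reversed with median centring (0.28, 0.0412). Over all genes, 3982 calls became 1105 with processed signals, 5357 with median centring and 1858 without array 3. The causes were not tested. Each array's ratio is already the difference within 1 pair. The deposited table was set beside these values, not refitted. The 3 arrays, 1 dye orientation and the signs of Brpf1 leave the genotype behind each direction unsettled, and dim probes near background give compressed ratios.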
